A study of Homo sapiens with 6 samples.

Results

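Human chromosome 19 carries the densest set of zinc finger (ZNF) genes in the genome, arranged in clusters along both arms. The genes described here are those whose symbol in the deposited gene table is ZNF, a number and at most 1 further letter, and whose chromosome in that table is 19. That rule gave 266 gene identifiers under 261 symbols, of 63152 genes counted, and used no expression value. The remaining 5 identifiers are second entries of ZNF177, ZNF763, ZNF788, ZNF709 and ZNF223. The cells were A549, a human lung adenocarcinoma line, harvested 72 h after reverse transfection with siRNA at 10 nM. In 3 libraries (siRPS19) the siRNA was a siGENOME SMARTpool against RPS19, the gene of a small ribosomal subunit protein, and in 3 libraries (siOTP) it was the ON-TARGETplus non-targeting control. The siRNAs come from different product lines, so reagent line and target cannot be told apart. Library totals on genes were 20814110 to 23889372 counts.

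Most of the proteins made from these genes belong to the C2H2 zinc finger class, in which a tandem array of fingers reads DNA. Many carry a KRAB domain at the amino end, which binds TRIM28 (KAP1), and TRIM28 in turn brings the histone methyltransferase SETDB1, HP1 proteins and histone deacetylases to the bound site. The class is known for silencing transposable elements. Its genes arose largely by tandem duplication, so neighbours often resemble each other, and most are transcribed at low levels.

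RPS19 averaged 41.7 ± 4.91 CPM (the read count scaled to library size with TMM factors) in siRPS19 libraries, against 1472 ± 96.6 CPM in siOTP libraries (SD, n = 3 each), a log2 fold change of -5.14. The epithelial markers KRT8, KRT18, KRT19, CDH1 and EPCAM were all above the low-count filter, and all passed the test. KRT19 and CDH1 were higher, with log2 fold changes of 2.78 and 0.71, and KRT18, KRT8 and EPCAM were lower, at -1.40, -0.96 and -0.57. Of the leukocyte markers, CD3E had no count and PTPRC averaged 0.0532 CPM in siRPS19 and 0.0169 CPM in siOTP. The summed leukocyte list ran from 2.46 to 4.304 CPM in siRPS19 and from 1.87 to 2.84 CPM in siOTP, with CD79A, which passed the test (log2 fold change 1.02), and CD14. The 3 endothelial markers matched to a gene summed to at most 0.347 CPM in siRPS19 and 0.101 CPM in siOTP. The fibroblast list summed to between 14.03 and 19.8 CPM in siRPS19 and between 32.2 and 39.8 CPM in siOTP, nearly all of it COL1A1, while DCN, LUM and COL1A2 were near 0. The part of these markers in the results was not tested. In bulk RNA, fewer cells of a type and less RNA per cell cannot be told apart.

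The promoters of 6 members show the sequence around the start sites of the members that the results turn on. They belong to the member with the largest rise (ZNF540), 2 neighbours from a block in which most members rose (ZNF226 and ZNF234), the most strongly called member of a cluster with no lower call (ZNF181), the largest fall (ZNF714), and the most abundant member (ZNF146). Each run holds 300 bases, 250 before and 50 after the RefSeq start, on the gene's own strand, which is + for all 6. The build of these promoters is GRCh38.p14, and capitals mark the motifs described under the promoters further on, read on either strand. The windows are chr19:37551124-37551423 for ZNF540, chr19:44164850-44165149 for ZNF226, chr19:44141304-44141603 for ZNF234, chr19:34733993-34734292 for ZNF181, chr19:21081953-21082252 for ZNF714 and chr19:36214856-36215155 for ZNF146.
ZNF540: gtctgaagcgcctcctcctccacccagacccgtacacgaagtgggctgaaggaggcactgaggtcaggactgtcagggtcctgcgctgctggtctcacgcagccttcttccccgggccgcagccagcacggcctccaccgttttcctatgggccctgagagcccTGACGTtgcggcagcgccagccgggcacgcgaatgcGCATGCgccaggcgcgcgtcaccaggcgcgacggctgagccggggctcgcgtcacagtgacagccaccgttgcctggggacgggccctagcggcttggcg
ZNF226: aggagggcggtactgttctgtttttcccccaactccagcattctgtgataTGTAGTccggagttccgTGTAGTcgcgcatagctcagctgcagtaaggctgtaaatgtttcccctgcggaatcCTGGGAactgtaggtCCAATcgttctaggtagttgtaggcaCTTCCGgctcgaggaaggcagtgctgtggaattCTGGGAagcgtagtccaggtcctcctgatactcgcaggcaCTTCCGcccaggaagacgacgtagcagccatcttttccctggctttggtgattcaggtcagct
ZNF234: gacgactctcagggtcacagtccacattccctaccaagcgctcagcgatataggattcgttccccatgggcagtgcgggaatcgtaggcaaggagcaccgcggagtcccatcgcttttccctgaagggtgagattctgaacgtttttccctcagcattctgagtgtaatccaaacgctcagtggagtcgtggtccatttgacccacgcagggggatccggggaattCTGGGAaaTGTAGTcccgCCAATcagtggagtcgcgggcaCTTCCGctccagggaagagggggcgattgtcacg
ZNF181: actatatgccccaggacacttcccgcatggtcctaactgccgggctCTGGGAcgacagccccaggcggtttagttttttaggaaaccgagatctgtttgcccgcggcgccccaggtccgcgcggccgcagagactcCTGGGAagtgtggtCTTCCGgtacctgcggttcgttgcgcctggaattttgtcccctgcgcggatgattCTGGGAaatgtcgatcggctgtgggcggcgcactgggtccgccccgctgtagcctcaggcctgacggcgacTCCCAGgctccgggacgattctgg
ZNF714: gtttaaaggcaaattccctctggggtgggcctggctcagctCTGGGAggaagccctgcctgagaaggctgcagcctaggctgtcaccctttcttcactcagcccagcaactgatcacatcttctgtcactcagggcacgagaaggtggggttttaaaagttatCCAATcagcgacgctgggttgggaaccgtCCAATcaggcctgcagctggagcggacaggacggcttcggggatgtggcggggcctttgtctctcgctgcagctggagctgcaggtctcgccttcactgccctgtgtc
ZNF146: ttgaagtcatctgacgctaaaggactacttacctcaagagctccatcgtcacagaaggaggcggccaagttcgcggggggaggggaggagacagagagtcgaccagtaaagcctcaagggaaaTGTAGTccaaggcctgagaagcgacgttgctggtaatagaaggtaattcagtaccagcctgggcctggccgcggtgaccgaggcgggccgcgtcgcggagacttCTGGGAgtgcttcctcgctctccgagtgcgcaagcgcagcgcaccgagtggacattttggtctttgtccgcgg

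More of the chromosome 19 ZNF genes were higher than lower after RPS19 siRNA, by small steps. Of the 266 members, 190 passed the low-count filter, and 88 of these were higher in siRPS19 (46.3%) and 39 lower (20.5%) at an adjusted p under 0.05 in edgeR's quasi-likelihood test, while 63 did not pass. Among all 17171 genes tested, 39.5% were called higher and 38.9% lower. In either direction 66.8% of tested members were called, against 78.3% of all genes. All 3 siRPS19 libraries were above all 3 siOTP libraries in 91 members and below them in 41, against 40.1% and 39.6% of all genes. The members thus had a larger share of higher calls than all genes tested and a smaller share of lower calls. The median log2 fold change of the tested members was 0.25, against 0.02 over all genes tested. The middle 50% of the members lay between -0.17 and 0.63, a narrower band than the -0.56 to 0.70 of all genes. Changes of at least 2-fold that also passed the test were fewer among members than in the background. By that measure 23 members were higher (12.1%, against 18.5% of all genes) and 9 lower (4.74%, against 12.4%). Of the 23, 15 lay in the lowest of 3 equal bands of mean CPM. Among the 173 members with at least 10 counts in every library, 15 were higher at least 2-fold (8.67%) and 8 lower (4.62%).

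The same name rule applied to the other chromosomes gave 297 ZNF genes, of which 238 were tested. There 107 were higher (45.0%) and 65 lower (27.3%), with a median log2 fold change of 0.11. The remaining 970 tested genes of chromosome 19 divided almost evenly, with 364 higher (37.5%), 382 lower (39.4%) and a median of -0.02. No test of the difference between these groups of genes was run. The members were also less abundant: their median over the 6 libraries was 1.18 RPKM (CPM per kilobase of transcript), against 2.63 RPKM for ZNF genes elsewhere and 4.09 RPKM for all tested genes.

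The split between higher and lower calls depended on how the libraries were scaled. TMM factors were 1.09 to 1.11 in siRPS19 and 0.903 to 0.907 in siOTP, without overlap between the groups. With library totals in place of TMM, the median of all genes moved up by 0.28 on the log2 scale, and 119 members were higher and 21 lower, against backgrounds of 53% and 27.6%. The higher share of the called members was then 85.0%, against 69.3% with TMM. A change of scaling moves all genes alike, so it leaves the distance between the median of the members and that of all genes, 0.22, as it is. With no filter on low counts that distance was 0.095. All changes below are on the TMM scale.

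Summed over all 266 members, the level was 2071, 2012 and 2038 CPM in siRPS19, against 2035, 2079 and 1996 CPM in siOTP, and the groups overlapped. One gene, ZNF146, made up a large part of that sum. Without it the members summed to 1909, 1847 and 1873 CPM in siRPS19, against 1704, 1744 and 1682 CPM in siOTP, and the groups did not overlap. At least 1 count was found for 241, 234 and 236 members in siRPS19, against 232, 230 and 228 in siOTP.

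The 76 members that were not tested had too few reads. No count was found in any library for 22 of them, and the other 54 had at most 66 counts over the 6 libraries. Of these 54, 40 had the higher mean in siRPS19 and 14 in siOTP. The same split over all untested genes was not computed, so it is not read as a trait of the members. With no filter on low counts the median log2 fold change of all genes was 0.16, against 0.02 with the filter. The filter could favour rises, since 13 tested members were under 10 counts in some siOTP library only and 2 in some siRPS19 library only. Among the 173 members with at least 10 counts in every library, 79 were higher and 38 lower, with a median of 0.22. More calls were made at higher levels: 27 higher and 9 lower of 64 in the lowest of 3 equal bands of mean CPM, 29 and 13 of 63 in the middle band, and 32 and 17 of 63 in the highest. The medians ran the other way, at 0.42, 0.23 and 0.18.

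The largest rise was that of ZNF540 (ENSG00000171817, chromosome 19, 38042308 to 38104998, hg19), a KRAB zinc finger gene. It held 64, 51 and 60 counts in siRPS19 libraries, against 3, 2 and 5 counts in siOTP libraries. All siRPS19 libraries were far above all siOTP libraries, and the choice of the largest rises and falls required groups that do not overlap. The fitted log2 fold change was 3.80 ± 0.32 (SE), or 13.9-fold, with adjusted p = 7.4e-10, and its size rests on very few siOTP reads. ZNF540 passed the low-count filter through its siRPS19 counts alone, so its place in the test depended on the rise. ZNF540 overlaps ZNF571 and ZFP30 on the other strand, and the library kit is not stated to mark strand, so reads of the shared stretch cannot be assigned by strand. ZNF571 was higher as well (2.04, 1.69 and 2.32 CPM in siRPS19, against 0.815, 0.557 and 1.03 CPM in siOTP), while ZFP30 was lower, with a log2 fold change of -0.29.

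ZNF554 (ENSG00000172006) overlaps no other gene. It stood at 7.04, 5.98 and 5.75 CPM in siRPS19, against 1.30, 1.42 and 2.06 CPM in siOTP, for a log2 fold change of 1.98 ± 0.17 (SE; adjusted p = 1.6e-09). ZNF132 (ENSG00000131849) varied little between the siRPS19 libraries, at 4.31, 4.29 and 4.26 CPM in siRPS19, against 1.53, 1.37 and 1.29 CPM in siOTP. The groups were apart in both genes, which the choice of genes required. The choice also required a mean of at least 1 CPM over the 6 libraries, and tested members outside it reached a log2 fold change of 1.84. Under these conditions the rest of the 8 largest rises were ZNF284 (log2 fold change 1.51), ZNF837 (1.51), ZNF358 (1.498), ZNF324 (1.47) and ZNF224 (1.44). ZNF224 encodes a KRAB repressor of the aldolase A promoter. ZNF284 held 10, 17 and 8 counts in siOTP libraries, so it too passed the low-count filter through its siRPS19 counts. ZNF358 and ZNF324 were the better covered of these, at 19.4 ± 1.58 and 27.5 ± 2.53 CPM in siRPS19, against 6.86 ± 0.342 and 9.93 ± 0.701 CPM in siOTP (SD, n = 3 each). Shared sequence limits several of them: 28.6% of the 50-base windows in ZNF358 transcripts, 33.5% in ZNF324, 43.9% in ZNF284 and 39.8% in ZNF224 occur in another gene's transcripts, against 0% in ZNF132 and 5.86% in ZNF554.

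The largest fall was that of ZNF714 (ENSG00000160352, chromosome 19, 21264965 to 21308073, hg19). It stood at 3.31, 2.78 and 2.86 CPM in siRPS19, against 13.6, 14.7 and 12.9 CPM in siOTP. Every siRPS19 library was below every siOTP library, which the choice of the largest falls required. The log2 fold change was -2.20 ± 0.11 (SE) with adjusted p = 2.7e-13. ZNF724P, which has a pseudogene's symbol but is protein coding in GENCODE 29, and has 48.7% shared windows, fell by 1.62 on the log2 scale.

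ZNF331 (ENSG00000130844), an imprinted gene in human tissues, stood at 16.8, 16.3 and 17.05 CPM in siRPS19, against 37.6, 40.8 and 35.4 CPM in siOTP. It fell by 1.18 on the log2 scale (adjusted p = 8.7e-13), and the groups did not overlap, which the choice also required. The other large falls were ZNF784 (log2 fold change -1.17), ZNF551 (-1.10), ZNF544 (-1.03), ZNF43 (-1.03) and ZNF586 (-1.02). These 5 genes lay between 2.50 and 7.04 CPM in siRPS19 libraries and between 5.78 and 15.1 CPM in siOTP libraries. ZNF544 overlaps a lower gene on the other strand, and ZNF586 overlaps ZNF587B, which was lower too, on its own strand.

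**Figure D1:**
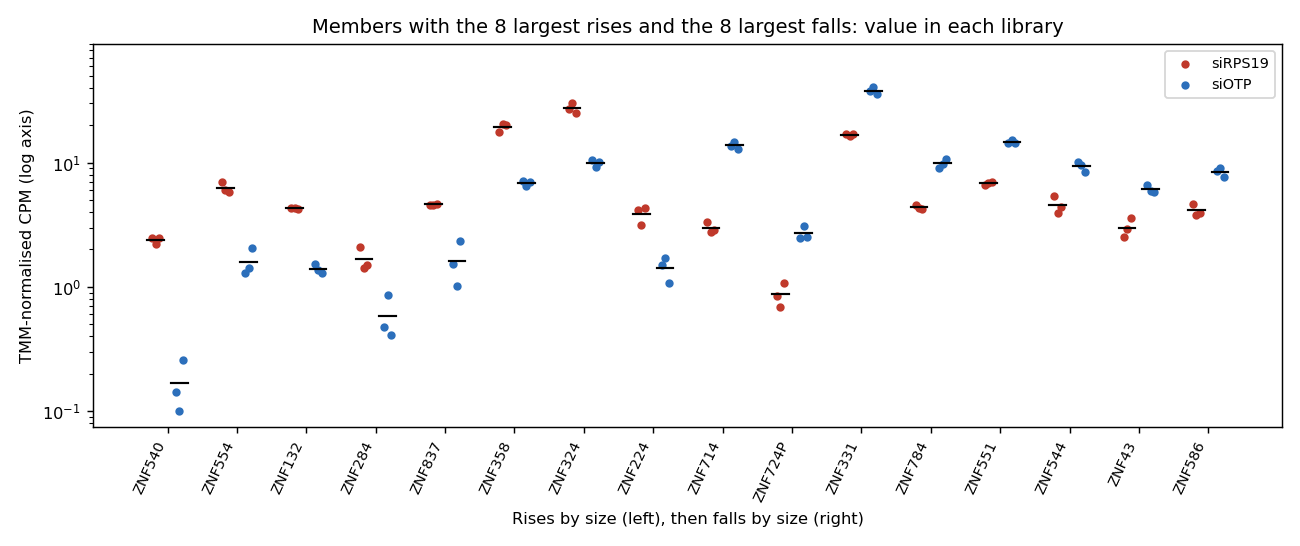
TMM-normalised CPM on a log axis for the members with the 8 largest rises and the 8 largest falls at a mean of 1 CPM or more. The 3 libraries per group are points (siRPS19 left of siOTP for each gene) and the group mean is a black bar. The groups do not overlap in any of the 16 genes, which the choice of genes required, and ZNF540 is near 0.1 to 0.3 CPM in siOTP.

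ZNF146 (ENSG00000167635, chromosome 19, 36705504 to 36729676, hg19) encodes a protein made almost entirely of zinc fingers, with no KRAB domain, and is overexpressed in some tumours. It was the most abundant member, at 39.5 ± 0.49 RPKM in siRPS19, against 78.8 ± 2.70 RPKM in siOTP (SD, n = 3 each). Its libraries stood at 162, 165 and 165 CPM in siRPS19, against 331, 335 and 314 CPM in siOTP. The groups lay far apart, and the log2 fold change was -0.995 ± 0.04 (SE; adjusted p = 2.5e-15). ZNF565, which overlaps it on the other strand, did not pass the test, with a log2 fold change of 0.12.

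The next most abundant members per length did not share a direction. ZNF428 averaged 16.0 RPKM in siRPS19 and 9.80 RPKM in siOTP, and rose. ZNF787 averaged 8.95 RPKM in siRPS19 and 12.1 RPKM in siOTP, and fell. ZNF579 averaged 13.9 RPKM in both groups and did not pass with TMM (log2 fold change -0.01). It was called higher with upper-quartile factors (0.16, adjusted p = 0.0093) and with library totals (0.28, adjusted p = 0.00011). ZNF580 and ZNF581 overlap on the same strand and moved in opposite directions, with log2 fold changes of 0.68 and -0.66. ZNF580 stood at 40.4, 39.1 and 38.0 CPM in siRPS19, against 25.4, 24.4 and 23.6 CPM in siOTP. ZNF581 stood at 14.04, 15.1 and 13.9 CPM in siRPS19, against 23.9, 21.2 and 22.8 CPM in siOTP. Reads that fall in both genes can be left out of counting, so the division of reads between these 2 genes is uncertain.

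Members with a described role were looked at whatever their result. ZNF274, which brings SETDB1 to the 3' ends of ZNF genes, was lower, at 18.5, 18.0 and 16.8 CPM in siRPS19, against 20.9, 22.9 and 22.6 CPM in siOTP (log2 fold change -0.32, adjusted p = 0.00033), but with library totals its value was -0.03 and did not pass. ZNF473, a factor in histone pre-mRNA 3' end processing, fell by 0.43 with adjusted p = 3.9e-06, and by 0.14 with adjusted p = 0.051 under library totals. The groups did not overlap in either gene.

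ZNF420, which restrains p53 activity, was higher by 0.39 (adjusted p = 0.011), at 5.65, 5.29 and 6.04 CPM in siRPS19, against 3.74, 4.51 and 4.74 CPM in siOTP. It overlaps ZNF585A, also higher, on the other strand, and without siOTP replicate 1 its adjusted p was 0.098. ZNF350, which represses GADD45A together with BRCA1, was higher by 0.32 (adjusted p = 0.015), and that call was lost with DESeq2 (adjusted p = 0.055), with no filter on low counts (0.076) and without siOTP replicate 1 (0.075) or 3 (0.053). ZNF568, whose mouse counterpart represses a placental transcript of Igf2, was higher by 0.50 (adjusted p = 0.022), also a call lost under several settings, among them leaving out siRPS19 replicate 2 (0.062) and siOTP replicate 3 (0.10). ZNF558 was higher by 0.72 (adjusted p = 1.4e-08), at 26.1, 24.8 and 25.3 CPM in siRPS19, against 13.96, 15.7 and 16.7 CPM in siOTP.

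Among the genes known for binding retrotransposons, ZNF91, which binds SVA elements, stood at 0.808, 1.17 and 0.704 CPM in siRPS19, against 0.815, 0.709 and 0.928 CPM in siOTP, and the groups overlapped. ZNF93, which binds LINE-1 elements, had 1, 0 and 1 counts in siRPS19 and none in siOTP, and was not tested. ZNF85, ZNF382 and ZNF536 were likewise too low to test. ZNF649, a KRAB repressor of growth factor signalling reporters, and ZNF304, which takes part in silencing of tumour suppressor loci, did not pass, with log2 fold changes of 0.15 and 0.23. For ZNF304 the value was 0.52 with library totals, and it then passed (adjusted p = 0.0012).

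Position along the chromosome was examined by opening a new cluster wherever the starts of neighbouring members lay more than 1 Mb apart. This gave 17 clusters, of which 9 had at least 5 members and together held 254 members, 181 of them tested. The 12 members outside these 9 gave 9 tested genes, 4 higher and 5 lower. Among the lone members, ZNF507, a gene at 59.1, 56.9 and 60.1 CPM in siRPS19, against 99.3, 98.3 and 93.3 CPM in siOTP, was lower by 0.72 on the log2 scale, while ZNF333 was higher by 0.39 and lost that call without siRPS19 replicate 1 (adjusted p = 0.10). The group of ZNF546, ZNF780B and ZNF780A had all 3 members higher, of which ZNF780B stood at 22.8, 18.0 and 19.7 CPM in siRPS19, against 10.0, 12.6 and 11.2 CPM in siOTP. ZNF574 and ZNF526, which lie together, were both lower, ZNF526 by 0.51.

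**Figure D2:**
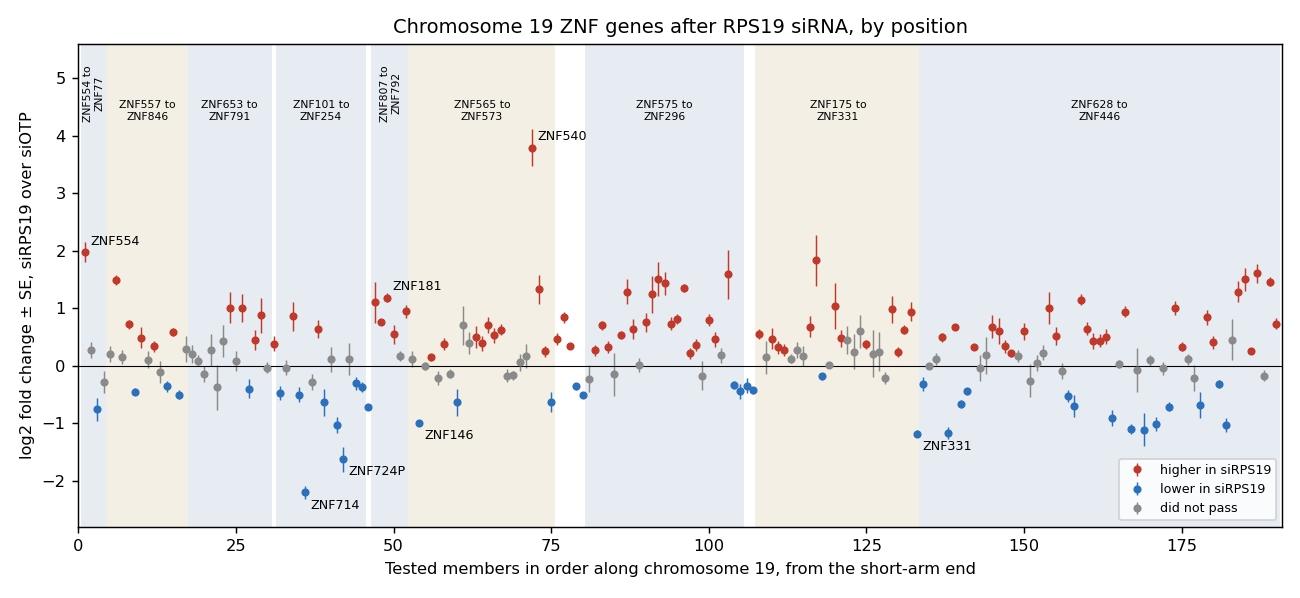
Log2 fold change of siRPS19 over siOTP with its SE for the 190 tested members in their order along chromosome 19, coloured by call, with shaded bands for the 9 clusters named by their first and last tested member. Blue points gather in the ZNF101 to ZNF254 cluster, red points in the ZNF807 to ZNF792 and ZNF575 to ZNF296 clusters, and ZNF540 stands highest.

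The cluster from ZNF101 to ZNF254, next to the centromere on the short arm (19779605 to 24312654, hg19), was the one of the 9 with more lower than higher calls. Only 14 of its 41 members were tested, of which 8 were lower, 2 higher (ZNF506 and ZNF708) and 4 did not pass. That is 57.1% lower and 14.3% higher, against 38.9% and 39.5% of all genes tested. The median log2 fold change was -0.34. The summed level of the 41 members was 60.9, 58.3 and 61.6 CPM in siRPS19, against 82.7, 85.1 and 82.8 CPM in siOTP, and the groups did not overlap. ZNF714 alone made up a large part of that difference, with means of 2.98 CPM in siRPS19 and 13.8 CPM in siOTP. The sum without ZNF714 was not computed. ZNF714, ZNF43 and ZNF724P, given above, had the largest falls, and the others ran from -0.30 (ZNF675) to -0.63 (ZNF738). ZNF708, one of the higher members, stood at 4.27, 4.42 and 3.52 CPM in siRPS19, against 2.30, 2.68 and 2.84 CPM in siOTP. With library totals 2 of the 14 tested members were higher and 3 lower, against 53% and 27.6% of all genes. The median of the cluster stood 0.36 below that of all genes tested, and 0.083 below it with no filter on low counts, where more members and genes enter.

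The small cluster from ZNF807 to ZNF792 (35033367 to 35454953, hg19), on the other side of the centromere, had 6 members, all tested. Of these 5 were higher (83.3%, against 39.5% of all genes tested) and none lower (against 38.9%), with a median of 0.86. ZNF302 was its most abundant member in CPM, at 63.5, 61.5 and 62.2 CPM in siRPS19, against 35.7, 40.0 and 34.2 CPM in siOTP. ZNF181 (ENSG00000197841), whose promoter is shown above, stood at 26.3, 25.6 and 29.1 CPM in siRPS19, against 10.7, 12.7 and 12.1 CPM in siOTP, for a log2 fold change of 1.19 ± 0.08 (SE; adjusted p = 1.8e-11). ZNF792 was higher by 0.95, ZNF599 by 0.55 and ZNF807 by 1.11, and in ZNF807 alone among the 5 the groups overlapped. ZNF30 did not pass (log2 fold change 0.18). None of the 6 overlaps another gene. ZNF807 shares 30.3% of its windows with other genes and ZNF181 shares 9.97%.

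The cluster from ZNF575 to ZNF296 (44029649 to 45579846, hg19) had the largest share of higher calls among the clusters of more than 6 members. Of 26 members 25 were tested, 18 higher, 2 lower and 5 not past the test, with a median of 0.54. That is 72% higher and 8% lower, against 39.5% and 38.9% of all genes tested. Measured per siRPS19 library against the siOTP mean, the median log2 ratio of its members was 0.57 in each of the 3 libraries. The summed level was 233, 228 and 237 CPM in siRPS19, against 159, 170 and 155 CPM in siOTP, and the groups did not overlap.

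ZNF226 (ENSG00000167380, chromosome 19, 44669226 to 44682534, hg19) carried the clearest rise there, at 35.4, 34.7 and 36.2 CPM in siRPS19, against 13.4, 15.2 and 12.7 CPM in siOTP, a 2.57-fold difference (log2 fold change 1.36 ± 0.07 SE, adjusted p = 2e-13). Its neighbour ZNF234 stood at 18.5, 16.1 and 18.4 CPM in siRPS19, against 10.3, 10.7 and 9.18 CPM in siOTP. Both overlap no other gene and share few windows with other genes (0.768% and 1.52%).

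ZNF225, next to them, was higher by 0.73, with 0.746% shared windows. Further into the same run, ZNF222, ZNF223, ZNF284 and ZNF224 were all higher, but 16.8% to 43.9% of their windows occur in other genes. ZNF223 averaged only 0.882 CPM in siRPS19 and 0.367 CPM in siOTP. Like ZNF284, it passed the low-count filter with its siRPS19 counts, so its place in the test depended on them. Both count among the 18 higher members of the cluster. ZNF230, between higher neighbours, stood at 5.89, 5.38 and 5.83 CPM in siRPS19, against 5.76, 5.88 and 5.26 CPM in siOTP, and did not pass. The 2 lower members, ZNF180 and ZNF296, are the last 2 in the order, with log2 fold changes of -0.33 and -0.44. With upper-quartile factors or library totals neither was called, and the value of ZNF180 was then -0.16 or -0.05.

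**Figure D3:**
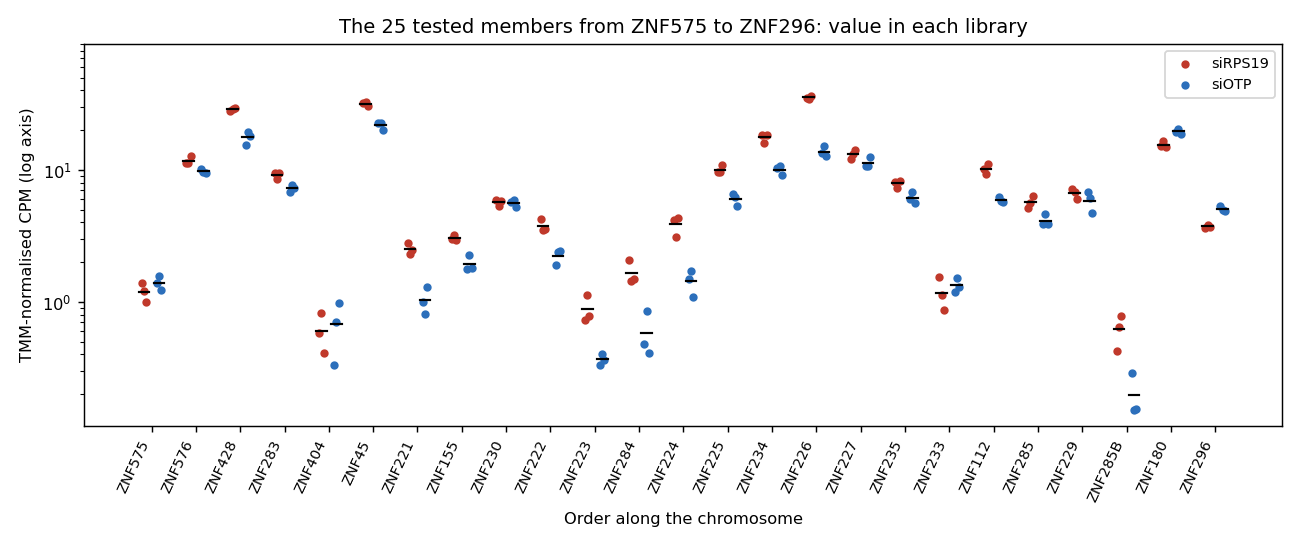
TMM-normalised CPM on a log axis for the 25 tested members from ZNF575 to ZNF296 in chromosome order, with siRPS19 libraries left of siOTP libraries and group means as black bars. Most genes sit higher in siRPS19, with the widest gap among the well covered ones at ZNF226, and ZNF180 and ZNF296 at the right end sit lower.

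The remaining large clusters were mixed, beside 39.5% higher and 38.9% lower among all genes tested. From ZNF628 to ZNF446, at the end of the long arm, 57 of 60 members were tested. There 26 were higher (45.6%) and 14 lower (24.6%), with a median of 0.18. It held both large rises (ZNF132, ZNF324, ZNF837) and 4 of the 8 largest falls at a mean of 1 CPM or more (ZNF784, ZNF551, ZNF586, ZNF544). From ZNF175 to ZNF331, 26 of 43 were tested, with 13 higher (50%), 2 lower (7.69%) and a median of 0.30. The strongest higher call in that cluster was ZNF761, at 29.5, 25.2 and 27.3 CPM in siRPS19, against 18.1, 18.8 and 16.2 CPM in siOTP.

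From ZNF565 to ZNF573, 23 of 26 were tested, with 10 higher, 3 lower and a median of 0.17. Nearest the end of the short arm lay 3 clusters. ZNF557 to ZNF846 gave 5 higher (38.5%) and 3 lower (23.1%) of 13. ZNF653 to ZNF791 gave 4 higher (30.8%) and 1 lower (7.69%) of 13. ZNF554 to ZNF77 gave 1 higher and 1 lower of 4 (25% each), beside 39.5% and 38.9% of all genes tested. Their strongest lower calls were ZNF317 (log2 fold change -0.45), ZNF799 (-0.40) and ZNF57 (-0.75). The call of ZNF799 was lost with the replicate block (adjusted p = 0.054) and under most other settings.

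**Figure D4:**
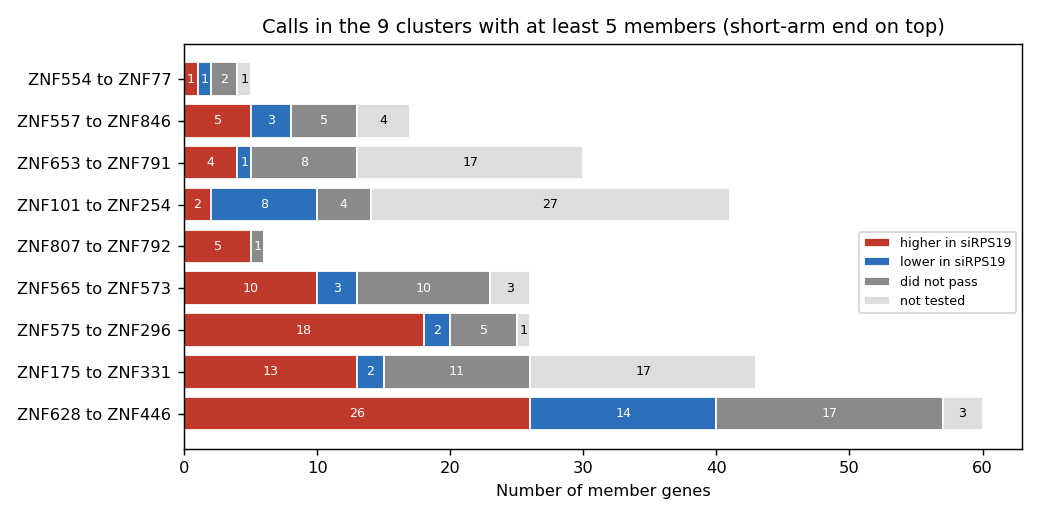
Number of members called higher, called lower, not past the test and not tested in each of the 9 clusters with at least 5 members, in chromosome order from the top. The ZNF101 to ZNF254 cluster shows 8 lower against 2 higher, and the ZNF575 to ZNF296 cluster 18 higher against 2 lower.

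Neighbours resembled each other only weakly. Over 175 pairs of adjacent tested members within a cluster, the log2 fold changes correlated at Pearson 0.18 and Spearman 0.16, a description across genes that share the 6 libraries. In 76 of these pairs both genes were called: 46 pairs were both higher, 8 both lower and 22 opposite. Since 69.3% of all called members were higher, many pairs would be both higher without any likeness of neighbours. Neither the number of pairs due from that share nor the same count over all genes was computed, so these counts are not read as likeness. Without overlapping pairs, 155 pairs gave 0.15 for each measure. Among 45 pairs of members whose gene bodies overlap, 22 had both genes tested and 11 both called, 8 of these in the same direction and 3 in opposite directions.

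Overlap with other genes and shared sequence bear on how many members can be read alone. Of all members, 190 overlap some other gene, 139 of them one on the other strand. The 57 tested members that overlap no gene gave 28 higher and 12 lower, with a median of 0.27, beside 0.25 for the 133 that do. Members with more than 10% of their windows shared gave 28 higher and 7 lower of 48 tested and a median of 0.38, beside 60 higher and 32 lower of 140 and a median of 0.20 for those with up to 10%. Across 188 tested members the log2 fold change correlated with the shared percentage at Pearson 0.20. With log2 mean CPM it correlated at -0.21 and with log2 transcript length at -0.02, over 190 members. The part of shared sequence in the calls was not tested. In GENCODE 29, 249 members are protein coding, and the other 17 are not or, for 3, have no entry there. The 184 tested protein-coding members gave 85 higher and 39 lower, with a median of 0.24. Of the 17, only 6 were tested, with 3 higher, each at least 2-fold, and 0 lower.

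Promoters were matched for 214 of the 266 members, from RefSeq. Their median GC content was 59.8%, with 20 CpG per 300 bases, against 58.3% and 14 over all 27305 promoters. CGGAAG, the core bound by ETS factors, occurred on either strand in 58.4% of member promoters, against 44.4% of those of 214 ZNF genes elsewhere and 19.9% of all. It was in 69.2% of the promoters of higher members, 60.0% of those of lower members and 47.1% of those that did not pass. CCAAT occurred in 53.3% of members, 43.5% of ZNF genes elsewhere and 35.7% of all promoters. By call it was in 38.5% of the higher members, 65.7% of the lower members and 47.1% of those that did not pass.

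TGTAGT and CTGGGA were added after the printed promoters had been read, because they recur there, so they are no independent observation. TGTAGT was in 27.1% of member promoters, 13.6% of ZNF genes elsewhere and 8.95% of all, with 39.7% among higher and 40.0% among lower members. CTGGGA was in 52.8% of member promoters, 44.4% of ZNF genes elsewhere and 33.4% of all. In ZNF226 both occur 2 times, beside 2 matches of CGGAAG, which reads CTTCCG on the printed strand. ZNF234 holds each of these motifs 1 time, and ZNF540 holds none of them.

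The other motifs, also read on both strands, were TTTGAA (10.3% of members, 15.4% of all), CACGTG (4.21% and 7.43%), GCATGC (9.35% and 7.48%), ATGGCGG (8.88% and 5.72%) and TGACGT (11.2% and 8.32%). A p53 site, searched as a pair of half-sites up to 13 bases apart, was in 0 of 214 members and in 0.029% of all promoters. A match shows the letters alone, and no match is limited to these 300 bases.

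A list of silencing genes that work with or beside KRAB zinc finger proteins moved mostly down. The list was chosen with earlier results of these data known, so its counts are no independent observation. It also holds genes of general DNA methylation and modification, such as UHRF1, DNMT1 and SUMO2. All 27 genes of that list were tested, and 21 were lower, 3 higher and 3 did not pass, with a median log2 fold change of -0.57, against 0.02 over all genes. Of all genes tested, 38.9% were lower and 39.5% higher. TRIM28, the protein that binds the KRAB domain, averaged 380 ± 12.1 CPM in siRPS19, against 950 ± 43.2 CPM in siOTP (SD, n = 3 each), which is a log2 fold change of -1.32 (adjusted p = 1.6e-16). SETDB1 averaged 32.5 ± 2.52 CPM in siRPS19, against 31.4 ± 1.24 CPM in siOTP, and did not pass.

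The smallest p-values of the list belonged to UHRF1, which guides maintenance DNA methylation (7.53 ± 0.505 CPM in siRPS19, against 151 ± 2.16 CPM in siOTP), DNMT1, the maintenance DNA methyltransferase (52.9 ± 2.72 against 227 ± 4.80 CPM), and SUMO2, a small modifier (55.0 ± 1.41 against 201 ± 4.65 CPM). Higher were DNMT3A (log2 fold change 0.60), ATF7IP, the partner of SETDB1 (0.57), and ATRX (0.15). With library totals 16 of the 27 were lower and 6 higher, against 27.6% and 53% of all genes.

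**Figure D5:**
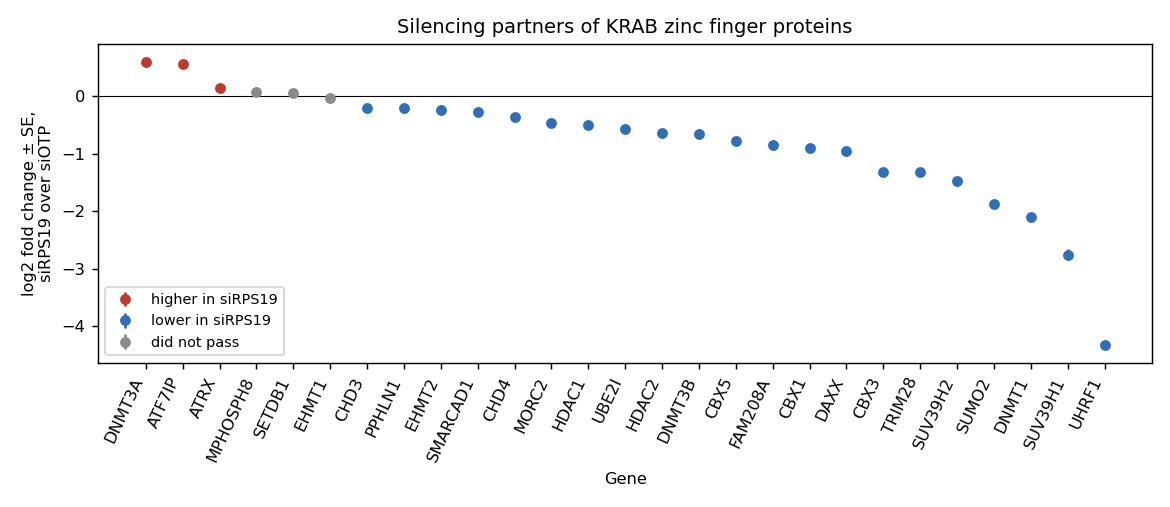
Log2 fold change of siRPS19 over siOTP for the 27 genes of the silencing list, sorted from the highest to the lowest and coloured by call, with SE bars that are mostly smaller than the points. DNMT3A, ATF7IP and ATRX lie above 0 and UHRF1 is lowest at -4.33.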

How the data were processed

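Per the labels' protocols, total RNA from A549 cells was purified on columns and made into paired-end libraries of 50-base reads with a standard Illumina TruSeq kit. TopHat2 2.0.8b, HTSeq, DESeq and R 3.0.2 are named as tools, and hg19 as the build, per the submitters' processing notes. The authors deposited whole-number counts per Ensembl gene for each library, without normalisation. Their RPKM table, as deposited, gave the symbols, coordinates and transcript lengths of the members, and none of its RPKM values was used. It lacks 423 counted genes. Entries that name no gene were left out. Reads assigned to no counted feature were 5.13% to 6.36% of all entries in siRPS19 and 3.39% to 3.85% in siOTP. Ambiguous reads were 7.50% to 7.60% in siRPS19 and 8.10% to 8.24% in siOTP.

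From the counts, genes were kept by filterByExpr (minimum count 10, minimum total 15), scaled by TMM and tested in edgeR 4.0.16 by the robust quasi-likelihood test over all 17171 genes, with Benjamini-Hochberg adjustment at 0.05. Every adjusted p comes from this test unless another setting is named. RPKM was computed from TMM-normalised CPM and the deposited lengths. An exact permutation test of 3 against 3 libraries cannot go below p = 0.1 and was not used. Shared sequence is the share of 50-base windows of a member's GENCODE 29 transcripts found in transcripts of another gene, available for 263 members. On simulated counts (16813 genes) the fit recovered 56.7% of 67 changes of 1.5-fold, 91.0% of 67 of 2-fold and 100% of 66 of 4-fold, with 7 false calls. The simulation took real gene means and changed few genes, as many up as down, at a fixed low dispersion. In the data 78.3% of genes were called and the TMM factors differed between groups. These figures thus check the code and do not give the recovery or false calls in the data.

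Replicates differed beyond sampling noise (chi-square per degree of freedom 4.40 to 16.6). Libraries with the same number in the 2 groups carry the same date in the labels and are therefore paired; their deviations from the group means correlated across genes at 0.059, -0.10 and 0.048. The main fit had no block, and the replicate block was an alternative, beside 3 other scalings, 2 other filters, DESeq2 1.42.0, limma-voom, each library left out, and other choices of members and cluster gap. The members and lists were chosen with earlier results of these data known. Named are the 8 largest rises and falls at a mean of 1 CPM or more whose groups do not overlap. Also named are the 6 members with the highest RPKM and the smallest p in each direction per cluster. Members with a known role and the strongest genes of the silencing list are named too. Other members named within clusters or as overlapping genes were chosen after their values were seen. Protein features were not analysed here. One marker gene is not reported here.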

Additional observations from a re-analysis of the deposited data

How the results depend on the processing

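Higher calls among the members numbered 75 to 86 and lower calls 37 to 40 when each library was left out in turn, and the median log2 fold change ran from 0.23 to 0.29, beside 88, 39 and 0.25 with all 6. With the replicate block there were 88 higher and 38 lower members, and ZNF799 alone among the named members lost its call. No call turned its direction under any alternative fit. Scaling moved the values most: the median was 0.42 with upper-quartile factors (110 higher, 28 lower) and 0.53 with library totals, where 21 members were lower. Without a filter on low counts the median of the members stood 0.095 above that of all genes instead of 0.22. Members that overlap no other gene gave 28 higher and 12 lower calls, the fall in number following from the smaller set. DESeq2 gave 77 higher and 34 lower members, limma-voom 88 and 39.

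Values that changed sign were those of ZNF579 (0.16 with upper-quartile factors, 0.28 with library totals, 0.041 with a filter at a mean of 1 CPM, and -0.052 to 0.035 with a library left out) and ZNF91 (-0.11 to 0.27 with a library left out, negative without siRPS19 replicate 2). Set against the median of all genes, the cluster from ZNF554 to ZNF77 stood at 0.073 with no filter and 0.033 with the 1 CPM filter, where the main value was -0.027, and with no filter the clusters from ZNF565 to ZNF573 and from ZNF628 to ZNF446 came to -0.051 and -0.0075, where the main values were 0.14 and 0.16. The cause was not tested. Depth limits the 76 untested members and those near 1 CPM, where a few reads decide the fold.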

Other observations

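Chromosome 19 also carries 17 zinc finger genes under other names (ZFP, ZSCAN, ZIM) or ZNF names with a longer suffix, which the name rule leaves out. Of these 8 were tested, with 2 higher, 4 lower and a median log2 fold change of -0.20. ZSCAN18 averaged 1.70 ± 0.282 CPM in siRPS19 and 0.977 ± 0.279 CPM in siOTP (SD, n = 3 each), and ZFP14 averaged 13.7 ± 0.268 CPM in siRPS19 and 10.8 ± 0.602 CPM in siOTP. ZSCAN5A was lower, at 2.69 ± 0.170 CPM in siRPS19 and 5.75 ± 0.383 CPM in siOTP, and ZFP82 was lower by 0.88 on the log2 scale. ZFP36, an mRNA-binding protein whose fingers are of another type, fell by 0.97. With these genes added to the members, 90 were higher and 43 lower of 198 tested. All of these genes were chosen after their values were seen.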
